A study of Mus musculus with 6 samples.

Results

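The genes described here encode the proteins of the cytosolic ribosome. They were chosen by name among the genes that a mouse expression array measured with a probe set, a group of short probes, annotated to a single gene. A gene was taken where its symbol begins with Rps or Rpl followed by a digit, or is Rpsa, Rplp0, Rplp1 or Rplp2, and 9 similarly named genes of kinases, binding proteins and pseudogenes were left out. This gave 48 of the 18193 genes with such a probe set: 21 of the small subunit, 20 of the large subunit, the stalk genes Rplp0 and Rplp2, and 5 paralogs with symbols of their own (Rpl22l1, Rpl39l, Rpl3l, Rpl7l1 and Rps27l). No measured value entered the choice, except that a gene with several probe sets was represented by the one with the highest mean over all arrays. Another 31 ribosomal protein symbols, among them Rpl5, Rpl10 and Rplp1, are listed only on probe sets that name several genes, and are not members.

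The samples were regulatory T cells (Tregs), the CD4 T cells that hold immune responses in check, taken from the spleen and lymph nodes of C57Bl/6 mice 8 to 11 weeks old and sorted by flow cytometry as CD4+CD25+FoxP3+. Every mouse, in all groups, carried the FoxP3GFP reporter. Cells of A2AR+/+ FoxP3GFP mice were kept in culture for 18 h with DMSO (WT vehicle) or with ATL1222 at 10 nM (WT ATL1222), an agonist selective for the adenosine 2A receptor (A2AR), and cells of A2AR-/- FoxP3GFP mice were kept with DMSO only (KO vehicle). Each of the 3 groups has 2 arrays, called biological replicates in the labels with no word on whether these were different mice. All p-values therefore describe the scatter among these arrays only, which may be technical.

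A ribosome joins a small subunit, which reads the mRNA, to a large subunit, which forms the peptide bonds, and each subunit is ribosomal RNA wrapped in many small, mostly basic proteins. Cells make these proteins in matched amounts, and their mRNAs are among the most abundant in lymphocytes. Most of these mRNAs begin with a C followed by a run of pyrimidines, the terminal oligopyrimidine (TOP) tract, through which the kinase complex mTORC1 and the binding protein Larp1 set how well they are translated.

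Some annotated starts of the members hold such a run, and others do not. RefSeq promoters of assembly GRCm38.p6, from 250 bases before to 50 bases after the annotated start, were matched by symbol for 43 of the 48 members, with 51 starts. The windows below run from 40 bases before the start to the first 20 transcribed bases, 60 bases in all, with the unbroken run of C and T that holds the start base in capitals. The first 6 were picked to show runs of C and T that hold the start, in genes of both subunits, and Rplp0 to show a start without one.
Rpl7a, chr2:26910767-26910826, plus strand: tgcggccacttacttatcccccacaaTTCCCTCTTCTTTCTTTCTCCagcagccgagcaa
Rpl35, chr2:39005112-39005171, minus strand: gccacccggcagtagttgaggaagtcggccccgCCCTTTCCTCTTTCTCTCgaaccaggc
Rpl38, chr11:114668540-114668599, plus strand: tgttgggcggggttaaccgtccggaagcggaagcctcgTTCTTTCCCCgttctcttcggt
Rps10, chr17:27635225-27635284, minus strand: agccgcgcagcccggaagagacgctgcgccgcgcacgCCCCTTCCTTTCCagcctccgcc
Rps18, chr17:33955646-33955705, minus strand: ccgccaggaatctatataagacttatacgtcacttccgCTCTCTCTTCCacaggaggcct
Rps27, chr3:90213629-90213688, minus strand: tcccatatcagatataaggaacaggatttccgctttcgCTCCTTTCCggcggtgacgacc
Rplp0, chr5:115559427-115559486, plus strand: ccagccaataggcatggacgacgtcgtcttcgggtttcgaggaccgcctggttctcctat
The run is 21 bases long at Rpl7a and 9 bases long at Rps27, and at Rplp0 the start base is no pyrimidine. At Rpl7a 14 bases of the run lie before the start and 7 from it on, and the start base is T and not C. A C at the annotated start stood at 15 of 51 member starts (29.4%), against 16.3% of all 32851 promoters of the table. A C that opens at least 5 pyrimidines was annotated at 8 member starts (15.7%), against 2.51% of all promoters. To allow for an annotated start that is a few bases off, runs with any part within 5 bases of the start were counted. Such a run of at least 8 pyrimidines was present at 18 member starts (35.3%), against 9.38% of all promoters.

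**Figure D1:**
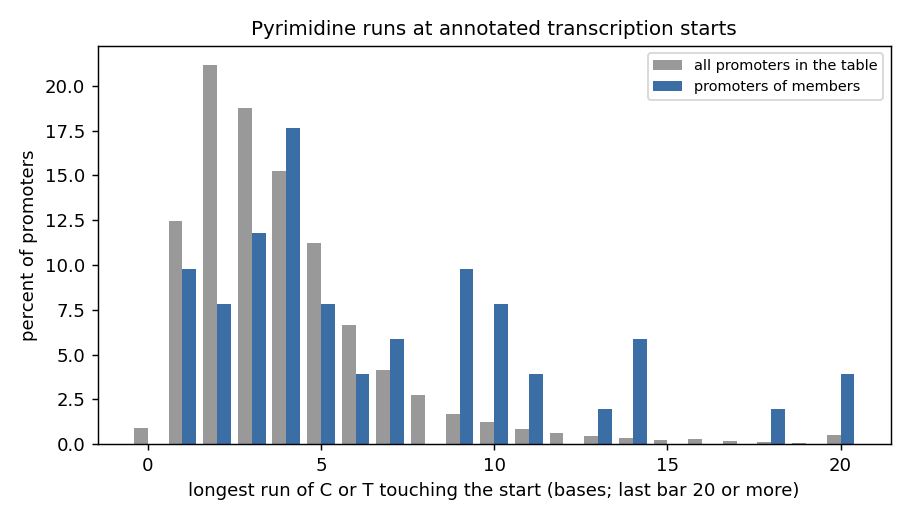
Percent of promoters (vertical axis) by the length in bases of the longest unbroken run of C or T near the annotated start (horizontal axis). A run counts if any part of it lies within 5 bases of the start, and it may reach further out. The last bar holds 20 or more. Shown are 51 starts of members (blue) and all 32851 promoters of the table (grey). The median was 5 bases for members and 3 for all promoters, and 35.3% of member starts had a run of at least 8, against 9.38% of all promoters.

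Other short strings were counted over the whole 300 bases on both strands, and matches of different strings can overlap. GGAAGT, which holds the core that ETS factors bind, was found in 39.2% of member promoters and 23.8% of all. AAGATGG, the core of the YY1 motif, was found in 15.7% and 6.34%, and the pyrimidine string CTTTCC in 45.1% and 26.6%. TATAAA, the common form of the TATA box, was found in 11.8% and 13.6%. These are matches of letters and not measured binding sites.

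The values are array signals on a linear scale, and a signal depends on the probes as well as on the amount of RNA, so signals are compared between arrays and not between genes. On each array the authors' scaling gave a mean of 250 over the probe sets left after the highest and lowest 2% were dropped. Median signals ran from 74.68 to 98.17. The 3' probe set of Gapdh was 1.21 (WT ATL1222 replicate 1) to 1.45 times as bright as its 5' probe set, and for Actb this ratio was 1.93 (the same array) to 2.53. Spiked-in poly-A RNAs were brighter on replicate 1 than on replicate 2 in every group, by 1.06 to 2.19 times. As a check of the labels, chosen with its values known, Rgs2, a brake on G protein signalling, fell in KO vehicle (log2 -1.33 against WT vehicle, limma adjusted p = 0.00556) and rose in WT ATL1222 (log2 1.78, adjusted p = 0.000179). The response genes Crem and Pdcd1 also passed in all 3 comparisons. Of the markers that define the sort, Foxp3 was dim on all arrays, from 7.18 to 53.5. Summed signals ran from 26852.3 to 38439.7 over 11 Treg markers and from 31751.3 to 38588.2 over 6 T cell markers, and 5 marker genes rose from KO vehicle to WT ATL1222, by log2 differences of 1.11 for Tnfrsf18, 0.98 for Tnfrsf4, 0.75 for Ctla4, 0.69 for Cd2 and 0.80 for the naive cell marker Ccr7 (limma adjusted p = 0.00358, 0.02, 0.039, 0.0336 and 0.01). With the replicate block Nrp1, Il7r and Klf2 also fell in that comparison (log2 -0.40, -0.40 and -0.57), and Tnfrsf18, Tnfrsf4 and Ccr7 also rose from WT vehicle to WT ATL1222 (log2 0.65, 0.67 and 0.72). Summed over the marker genes of other cell types that were on the array, B cell signal ran from 872.0 to 1129.3 (9 genes), myeloid from 364.0 to 604.0 (11), dendritic from 266.0 to 437.0 (7), CD8 T and NK from 696.0 to 949.0 (9), erythroid from 128.0 to 192.0 (4) and stromal from 810.0 to 1059.2 (8).

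Of the 48 members, 34 had a signal above 15000 on all 6 arrays, a limit set after the values were seen, as did 25 other genes. The 34 members are called bright below, which describes their probe sets and ranks no gene by its RNA. They comprised 17 small subunit genes, 15 large subunit genes and both stalk genes. Their signals ran from 16331.4 (Rps26) to 74437.0 (Rps29). The chosen probe sets of all 48 members carried 5.19% to 6.08% of an array's whole signal. With their other probe sets and those listing several genes, ribosomal protein probe sets carried 19.9% (WT ATL1222 replicate 1) to 23.1% (KO vehicle replicate 1).

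**Figure D2:**
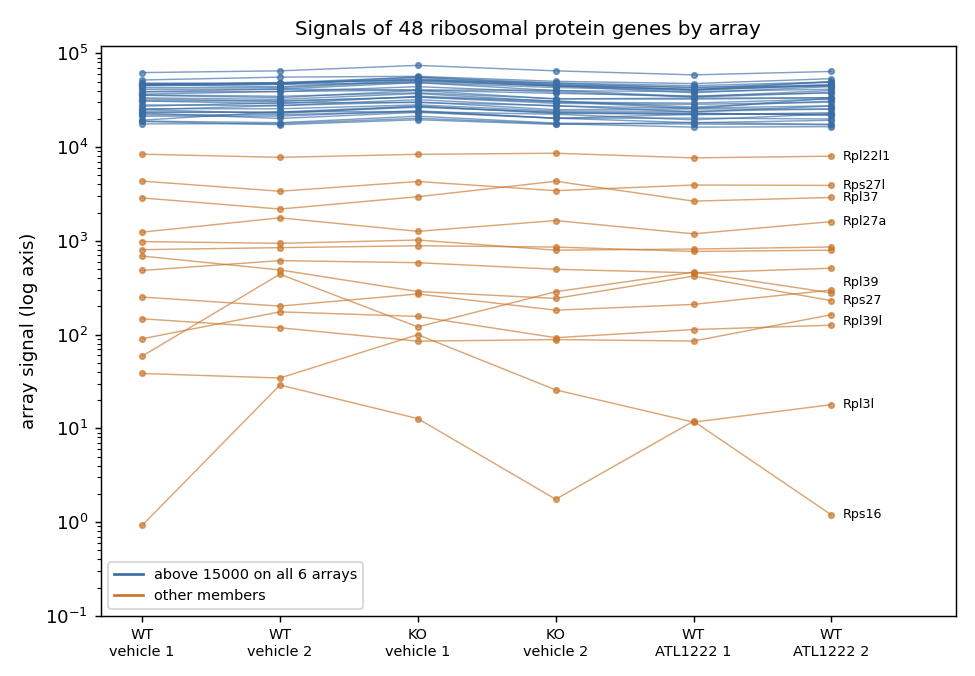
Signal (vertical log axis, arbitrary units) of each of the 48 genes on the 6 arrays (horizontal axis), 1 line per gene, with the 34 genes above 15000 on every array in blue and the other 14 in orange. The blue lines run flat between 16331.4 and 74437.0 with a small common rise at KO vehicle replicate 1, and the dimmest orange lines cross each other.

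The other 14 members ran from 0.92 (Rps16) to 8600.7 (Rpl22l1). For 9 of them (Rpl12, Rpl14, Rpl27a, Rpl37, Rpl39, Rps16, Rps25, Rps27 and Rps6) the same symbol is also listed on a probe set of several genes that stood above 15000 on every array. The single-gene probe set of Rps16, whose tail reaches the tRNA in the decoding centre, gave 0.92 and 28.97 in WT vehicle, 12.69 and 1.75 in KO vehicle, and 11.91 and 1.19 in WT ATL1222. A probe set listing Rps16 with 2 other symbols, Rps16-ps2 among them, gave 31785.9 to 43423.1. Which of these probe sets reads a member's own mRNA was not tested. Rps16 and Rpl3l were too dim to test for differences. The remaining 5 of the 14 are the paralogs, which are listed on no probe set of several genes.

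The members' small shifts followed single arrays rather than groups. Each signal was taken as log2(signal + 16) and set against the gene's own mean over the 6 arrays. Rplp0, which anchors the stalk that recruits elongation factors, gave 41325.9 and 41576.1 in WT vehicle, 48712.8 and 40025.9 in KO vehicle, and 39028.9 and 41438.5 in WT ATL1222. KO vehicle replicate 1 stood above the other 5 arrays and WT ATL1222 replicate 1 below them. Rpsa, a small subunit protein also known as the laminin receptor, gave 28177.6, 27783.0, 32035.8, 27352.7, 26036.2 and 27583.1 in the same order. KO vehicle replicate 1 was again the highest array and WT ATL1222 replicate 1 again the lowest.

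Over the 34 bright members the median deviation was 0.004 and 0.006 log2 units on the WT vehicle arrays, 0.181 and -0.038 on the KO vehicle arrays, and -0.113 and -0.012 on the WT ATL1222 arrays. On KO vehicle replicate 1 all 34 stood above their own mean, by 0.05 to 0.23, and it was the highest array for 33 of them. On WT ATL1222 replicate 1, 32 of the 34 stood below their mean, and it was the lowest array for 26. The 25 other genes above 15000 had medians of 0.071 on KO vehicle replicate 1 and -0.037 on WT ATL1222 replicate 1. Over all 10916 genes tested these medians were 0.042 and 0.003. The difference between the sets was not tested.

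The array's 3' control probe set for 18S ribosomal RNA gave 3430.4 and 3447.1 in WT vehicle, 2953.2 and 3173.0 in KO vehicle, and 3707.8 and 3388.0 in WT ATL1222. It was lowest on the array where the ribosomal protein genes were highest, and highest where they were lowest. The summed signal of 7 naive CD4 T cell markers was 21952.5 and 21878.4 in WT vehicle. It was 26347.3 and 25700.2 in KO vehicle, and 21594.6 and 24944.3 in WT ATL1222. Its highest and lowest arrays were also KO vehicle replicate 1 and WT ATL1222 replicate 1. KO vehicle replicate 2 stood close to the highest, and both WT vehicle arrays close to the lowest. The 7 genes did not all move together. In KO vehicle 5 of the 7 were above 0, with a median log2 difference of 0.20. Klf2 and Satb1 had 0.42 and 0.41 there, and Ccr7 and Dapl1 -0.08 and -0.30. In WT ATL1222, 5 of 7 were below 0 against WT vehicle (median -0.21) and 6 of 7 against KO vehicle (median -0.40). The part of 18S ribosomal RNA, of RNA integrity and of labelling in the shift was not tested. In such bulk samples a change in the mix of cells and a change in the RNA per cell cannot be told apart.

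**Figure D3:**
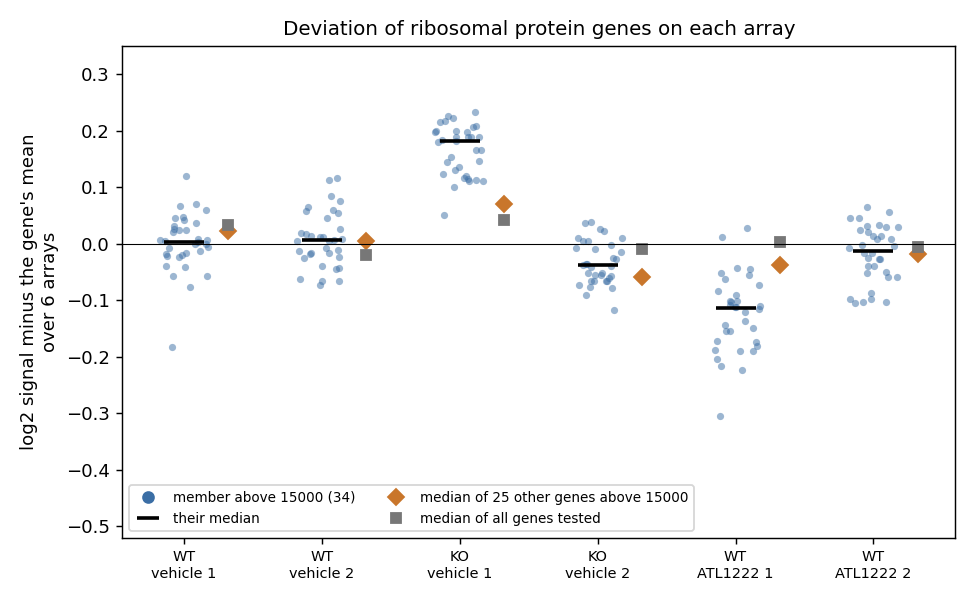
Log2 signal minus the gene's mean over the 6 arrays (vertical axis) on each array (horizontal axis), with 1 blue point for each of the 34 bright members, a black bar at their median, an orange diamond at the median of the 25 other genes above 15000 and a grey square at the median of all 10916 genes tested. The blue points lie wholly above 0 on KO vehicle replicate 1 (median 0.181) and mostly below 0 on WT ATL1222 replicate 1 (median -0.113), while both partner arrays lie near 0.

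Loss of A2AR in resting Tregs was compared first. No ribosomal protein gene passed the test: 0 of the 46 members tested passed limma's test at an adjusted p of 0.05, where 3 of all 10916 genes passed (0.0275%), or 9 with the replicate number as a block. The members' adjusted p-values ran from 0.92 to 1.00, and 2 members (Rps27 and Rpl37) had an unadjusted limma p under 0.05, against 3.88% of all genes. The median log2 difference between KO vehicle and WT vehicle was 0.061 over the members and 0.004 over all genes. The standard error of a single bright member's log2 difference was 0.12 to 0.15. The members' median deviations varied between the arrays of a group with an SD of 0.093, pooled over the groups.

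By subunit, the median log2 difference was 0.037 over 20 small subunit genes and 0.062 over 20 large subunit genes, with 16 of 20 above 0 in both. The 2 arrays of each group overlapped for most members. KO vehicle stood above WT vehicle with no overlap for 6 of 46 members (Rpl11, Rpl22, Rpl37, Rpl37a, Rpl7l1 and Rps29; 15.8% of all genes), and below it for 2 (Rps27 and Rpl39l; 13.7% of all genes). Those shares of members, 13.0% and 4.35%, are below those of all genes.

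Among small subunit genes the log2 difference was 0.09 for Rps3, which lines the mRNA entry channel, 0.08 for Rpsa, 0.04 for Rps4x, 0.03 for Rps14 and 0.02 for Rps19, whose human counterpart is mutated in Diamond-Blackfan anaemia, each with a standard error of 0.13. Rps29 gave 62354.9 and 65068.4 in WT vehicle and 74437.0 and 65079.4 in KO vehicle, a log2 difference of 0.13 ± 0.13 (SE). Its second KO vehicle array stood just above the higher WT vehicle array. Rps6, the S6 kinase substrate, was read by a dim probe set at 982.42 and 939.94 in WT vehicle and 1019.73 and 795.57 in KO vehicle (log2 -0.09 ± 0.17).

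Among large subunit genes, Rpl11, which binds Mdm2 when ribosome assembly fails, gave 22062.5 and 22190.6 in WT vehicle and 23820.5 and 22410.3 in KO vehicle (log2 0.06 ± 0.13). Rpl22, which is required for the development of αβ T cells, gave 31090.6 and 29026.8 in WT vehicle and 34826.9 and 31119.8 in KO vehicle (log2 0.13 ± 0.13). Its paralog Rpl22l1 gave 8402.61 and 7776.26 in WT vehicle and 8375.98 and 8600.71 in KO vehicle (log2 0.07 ± 0.12). Neither gene of the pair passed the test. Log2 differences were 0.14 for Rpl37a, 0.11 for Rpl13a, 0.07 for Rpl38, 0.09 for Rplp0 and -0.01 for Rplp2, and -0.06 ± 0.39 and -0.03 ± 0.20 for the dim readings of Rpl14 and Rpl27a.

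The small upward shift lay on a single array, KO vehicle replicate 1, and not on replicate 1 of every group. Within replicate 1, the bright members' median log2 difference of KO vehicle from WT vehicle was 0.165, with 34 of 34 above 0. Within replicate 2 it was -0.027, with 25 of 34 below 0. Without KO vehicle replicate 1 the median over all members tested became -0.044, and without KO vehicle replicate 2 it became 0.161. After quantile normalization, which gives all arrays the same distribution, it was -0.006, and after cyclic loess, another normalization, 0.067. Ribosomal protein probe sets make up much of the brightest signal, so equal distributions can take out a shift that they share. The value of -0.006 therefore cannot tell whether such a shift was there.

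The agonist was compared with vehicle in wild-type cells next, and again no ribosomal protein gene passed limma's test: 0 of 46 did, against 23 of all 10916 genes (0.211%), or 78 with the replicate block. The members' adjusted p-values ran from 0.613 to 0.998, and only Rps27 had an unadjusted limma p under 0.05, against 4.99% of all genes. The median log2 difference between WT ATL1222 and WT vehicle was -0.072 over the members and -0.008 over all genes, and 41 of 46 members were below 0. WT ATL1222 stood below WT vehicle with no overlap for 15 of 46 members (32.6%, against 16.3% of all genes), and above it for 0 (14.5% of all genes). Since the members shift together from array to array, these 15 are not separate observations.

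The 15 comprised 7 small subunit genes (Rps27, Rps6, Rps26, Rps7, Rps19, Rpsa and Rps3), 7 large subunit genes (Rpl10a, Rpl19, Rpl38, Rpl8, Rpl4, Rpl7a and Rpl41) and the paralog Rpl7l1. Rpl10a, the uL1 protein of the mobile stalk near the exit site, gave 21357.6 and 21410.0 in WT vehicle and 18185.7 and 19311.6 in WT ATL1222, a log2 difference of -0.19 ± 0.13. Both agonist arrays lay below both vehicle arrays, and the difference was under 2 standard errors. Rps6 gave 817.15 and 859.34 in WT ATL1222 (log2 -0.19 ± 0.17). The next lowest were Rps25 (log2 -0.17 ± 0.20) and Rps18 (-0.17 ± 0.15).

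The values above 0 were those of Rpl39 (log2 1.02 ± 0.61), Rpl37 (0.15 ± 0.18), Rpl12 (0.15 ± 0.28), Rps15 (0.06 ± 0.14) and Rps27l, a p53-induced relative of Rps27 (0.03 ± 0.16). Rps27l gave 4336.6 and 3381.64 in WT vehicle and 3938.55 and 3901.66 in WT ATL1222. The agonist arrays lay between the vehicle arrays. Other log2 differences were -0.04 for Rplp0, -0.09 for Rplp2, -0.11 for Rps14, -0.08 for Rps19 and Rpl11, -0.09 for Rpl38, -0.06 for Rpsa, Rps3, Rps4x and Rpl22, -0.04 for Rpl22l1 and -0.03 for Rpl13a, with standard errors of 0.12 or 0.13.

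This downward shift lay mostly on a single array too, WT ATL1222 replicate 1. The bright members' median was -0.131 within replicate 1, with 32 of 34 below 0, and -0.029 within replicate 2, with 23 of 34 below 0. Without WT ATL1222 replicate 1 the median over the members tested was -0.010, and without replicate 2 of that group it was -0.120. After quantile normalization it was -0.016, with the same limit as for KO vehicle.

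The treated wild-type cells were last compared with KO vehicle, the widest contrast in receptor signalling, in which genotype and agonist differ together. Here 0 of 46 members passed, against 107 of all 10916 genes (0.98%), or 257 with the replicate block. The members' adjusted p-values ran from 0.644 to 0.997. None had an unadjusted limma p under 0.05, against 8.46% of all genes. With the replicate block 3 did (Rpl10a, Rpl37 and Rps26). The share of all genes with the block was not counted, so this count is no result about the members. The median log2 difference between WT ATL1222 and KO vehicle was -0.128 over the members and -0.023 over all genes. WT ATL1222 stood below KO vehicle with no overlap for 15 of 46 members (32.6%, against 20.9% of all genes) and above it for 0 (17.3% of all genes).

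The lowest log2 differences were those of Rpl37 (-0.36 ± 0.18), Rpl10a (-0.25 ± 0.13), Rpl37a (-0.21 ± 0.13), Rps26 (-0.21 ± 0.12) and Rps18 (-0.20 ± 0.15). Rps26, which contacts mRNA upstream of the start codon, gave 20296.6 and 17751.0 in KO vehicle and 16331.4 and 16528.4 in WT ATL1222. The groups did not overlap, and most of the distance came from KO vehicle replicate 1. The values above 0 were those of Rpl39 (0.88 ± 0.61), Rpl39l (0.39 ± 0.39), Rps27 (0.22 ± 0.27), Rpl12 (0.16 ± 0.28), Rps15 (0.03 ± 0.14) and Rps27l (0.03 ± 0.16). Within replicate 1 the bright members' median was -0.285, with 34 of 34 below 0. Within replicate 2 it was 0.011, with 20 of 34 above 0, so the sign turned between the replicate numbers. Without KO vehicle replicate 1 the median over the members tested was -0.033. After quantile normalization, with the same limit as above, it was -0.010. The comparison shares its arrays with the other two and is no separate evidence.

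**Figure D4:**
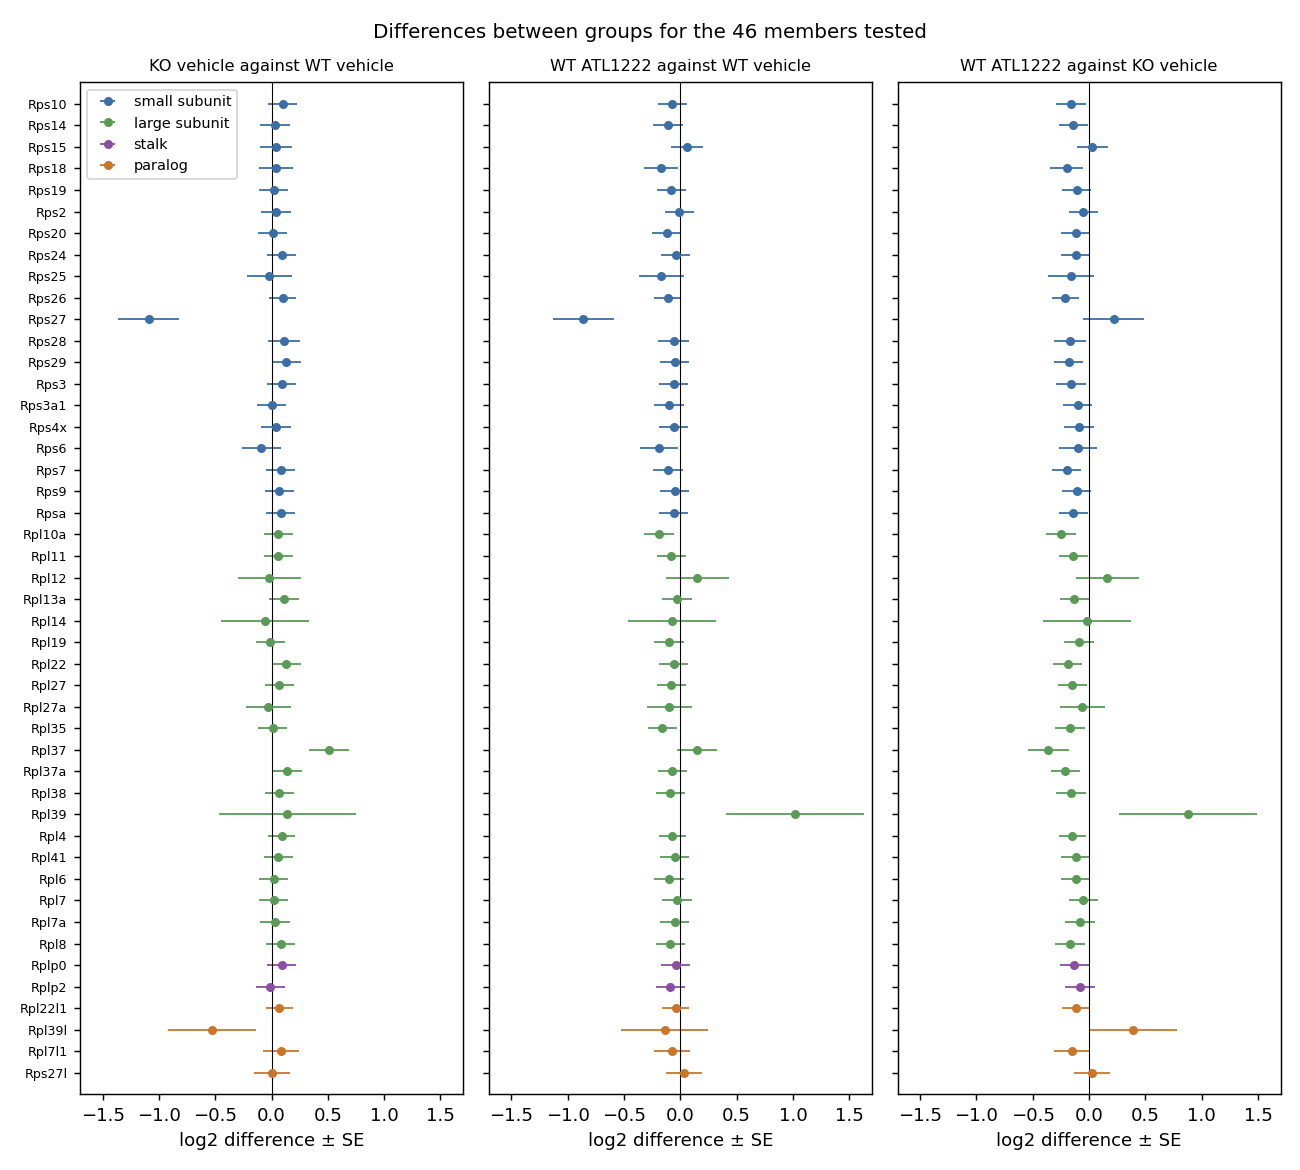
Log2 difference (horizontal axes) of each of the 46 members tested (vertical axis), by class in colour, with bars of 1 standard error, for KO vehicle against WT vehicle (left), WT ATL1222 against WT vehicle (middle) and WT ATL1222 against KO vehicle (right). Most points lie within 0.2 of 0, and the dim readings of Rps27, Rpl37, Rpl39 and Rpl39l lie furthest out.

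**Figure D5:**
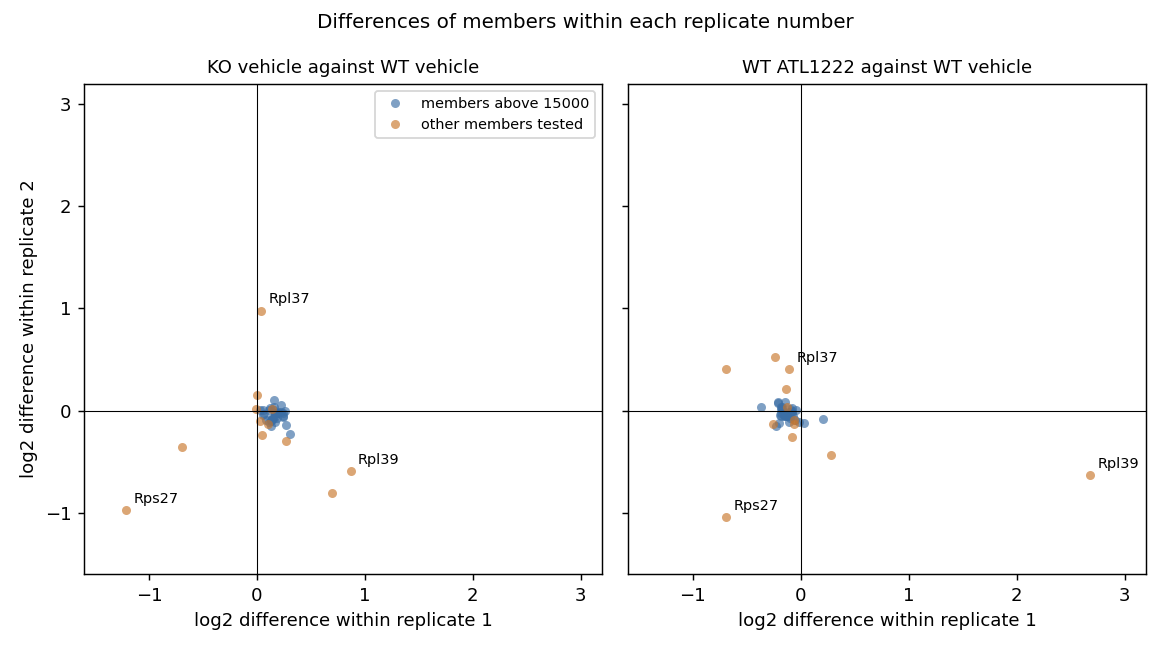
Log2 difference within replicate 1 (horizontal axes) against that within replicate 2 (vertical axis) for the 46 members tested, with the 34 bright members in blue, for KO vehicle (left) and WT ATL1222 (right) against WT vehicle. The blue points lie right of 0 on the left and mostly left of 0 on the right, and on the vertical axis they lie around 0.

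The members that lay furthest from 0 were all read by probe sets below 15000, and for Rps27, Rpl37 and Rpl39 probe sets above 15000 that list the same symbol gave smaller log2 differences. Rps27, a zinc finger protein of the small subunit, gave 687.72 and 489.41 in WT vehicle, 287.79 and 242.89 in KO vehicle, and 420.46 and 229.87 in WT ATL1222. Both other groups lay below WT vehicle without overlap. The log2 difference was -1.09 ± 0.27 for KO vehicle (limma adjusted p = 0.92, or 0.0975 with the replicate block) and -0.86 ± 0.27 for WT ATL1222 (adjusted p = 0.613, or 0.0898 with the block). It was below 0 within both replicates, at -1.21 and -0.97 for KO vehicle and -0.69 and -1.04 for WT ATL1222. The probe set that lists Rps27 together with its retrogene Rps27rt gave 43315.9 and 44387.9, then 47806.0 and 40728.8, then 39659.8 and 43211.7, with log2 differences of 0.01 and -0.08 from WT vehicle. The annotation does not say which transcripts the dim probe set reads.

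Rpl37, of the large subunit, gave 2867.84 and 2182.84 in WT vehicle, 2956.53 and 4320.81 in KO vehicle, and 2651.67 and 2901.36 in WT ATL1222. KO vehicle stood 0.51 ± 0.18 log2 units above WT vehicle (limma adjusted p = 1.00), through replicate 2 alone (0.98, against 0.04 in replicate 1). Of the 3 probe sets that list Rpl37 with Rpl37rt, those above 15000 gave log2 differences of 0.11 and 0.07, and a dim one (148.55 and 71.63 in WT vehicle, 173.24 and 184.01 in KO vehicle) gave 0.70. Rpl39, the small protein lining the peptide exit tunnel, gave 58.87 and 440.88 in WT vehicle, 120.7 and 286.52 in KO vehicle, and 462.89 and 278.5 in WT ATL1222. It had the widest spread within groups of any member tested (SD 1.198 log2 units). Its log2 difference with the agonist was 2.68 within replicate 1 and -0.63 within replicate 2, while a bright probe set listing Rpl39 with Gm32211 gave -0.02.

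Its paralog Rpl39l, known mainly from testis, gave 147.25 and 118.22 in WT vehicle, 84.99 and 88.44 in KO vehicle, and 85.28 and 162.93 in WT ATL1222, with a log2 difference of -0.53 ± 0.39 in KO vehicle. Rpl3l, the muscle relative of Rpl3, gave 11.63 to 99.77 and was not tested. Spread within groups was small for Rpl7l1 (SD 0.038), Rpl22l1 (0.054) and Rpl4 (0.075), and large for Rpl39, Rpl14 (0.443) and Rps27 (0.401). Its median was 0.103 over the bright members, 0.295 over the other 12 tested and 0.216 over all genes. Rpl7l1, a nucleolar relative of Rpl7, gave 804.84 and 845.84, then 885.7 and 858.05, then 770.58 and 794.78. Its 3 groups did not overlap, with log2 differences of 0.08 ± 0.16 and -0.07 ± 0.16 from WT vehicle (adjusted p = 1.00 and 0.998). How many of all genes had 3 such groups was not counted. The dimmer probe sets of Rpl7l1 gave -0.01 and -0.23 for KO vehicle, and -0.03 and -0.17 for WT ATL1222.

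All single-gene probe sets above 15000 were also summarised, 59 probe sets of 34 genes. Their median log2 difference was 0.06 for KO vehicle, -0.08 for WT ATL1222 and -0.15 between them. With the agonist 57 of 59 lay below 0. The 59 include the chosen probe sets of the 34 bright members, so these medians are no separate check of the members' values. Single probe sets ran from -0.13 to 0.22 for KO vehicle and from -0.24 to 0.06 for WT ATL1222. Of the 110 probe sets of several genes that list a ribosomal protein, 100 were above the limit for dim probe sets and 68 above 15000. Their medians were 0.046 for KO vehicle and -0.086 for WT ATL1222, and their array medians were again highest on KO vehicle replicate 1 (0.137) and lowest on WT ATL1222 replicate 1 (-0.127). Of the 24 members with more than 1 probe set, 11 had probe sets of both signs in the knockout comparison and 9 in the agonist comparison. Those of Rps3 ran from -0.18 to 0.80 in the former, and those of Rps20 from -0.81 to 0.64 in the latter. Those of Rpl35 ran from -0.23 to 0.55 between WT ATL1222 and KO vehicle. The dimmest probe set of Rps3 had a mean signal of 20.7 and that of Rps20 one of 39.4.

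Other genes of the translation machinery were tested in the same way. By limma's test, 0 genes of the following lists passed in any comparison, where 0.0275%, 0.211% and 0.98% of all genes passed. The first were translation initiation factors (33 tested), elongation and release factors (11), and other genes encoding or bound to cytosolic ribosomal proteins (4, Fau among them). The last were ribosome biogenesis factors (41) and the mTORC1 and S6 kinase arm (14). Of these 103 genes, 0 had an unadjusted limma p under 0.05 for KO vehicle. For WT ATL1222 against WT vehicle 4 did (Eif2b1, Gar1, Gnl3 and Nob1), and between WT ATL1222 and KO vehicle 7 did. Over all genes the shares were 3.88%, 4.99% and 8.46%, so 4 and 7 of 103 lie near these shares and not above them. With the replicate block the counts were 0, 6 and 10. The shares of all genes with the block were not counted, so these counts are no result about the lists. The lists' median log2 differences were 0.03, 0.05, 0.07, -0.03 and -0.03 for KO vehicle and -0.01, -0.06, -0.06, -0.03 and -0.03 for WT ATL1222, in that order. Gnl3, which encodes the nucleolar protein nucleostemin, differed by -0.46 ± 0.20 and Nob1, an endonuclease that matures 18S ribosomal RNA, by -0.81 ± 0.31 with the agonist. Eef1a1, the factor that brings aminoacyl-tRNA to the ribosome and a TOP mRNA itself, gave 46714.0 and 46274.4 in WT vehicle, 51246.4 and 45583.2 in KO vehicle, and 43867.9 and 45408.3 in WT ATL1222. It was chosen after its values were seen, and its highest and lowest arrays were those of the ribosomal protein genes. Larp1 gave log2 differences of 0.16 ± 0.19 and 0.03 ± 0.19 from WT vehicle, and Mtor 0.08 ± 0.18 and -0.12 ± 0.18.

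The smallest p of each list belonged to the following genes. Nolc1, a chaperone of small nucleolar RNA particles, differed by 0.61 ± 0.30 in KO vehicle. Gar1, a protein of the particles that modify ribosomal RNA, differed by -0.68 ± 0.22 in WT ATL1222 (limma adjusted p = 0.672), and Mybbp1a, a nucleolar repressor, by -0.56 ± 0.16 between WT ATL1222 and KO vehicle (adjusted p = 0.197). Eef2k, the kinase that inhibits elongation, was nearest for its list in all 3 comparisons (0.33, -0.50 and -0.83, each ± 0.28). For initiation factors these were Eif5 (-0.20 ± 0.15 for KO vehicle, 0.37 ± 0.15 between WT ATL1222 and KO vehicle) and the eIF2B subunit Eif2b1 (0.58 ± 0.26 for WT ATL1222). For the list of genes encoding or bound to ribosomal proteins they were Btf3, Naca and Serbp1. The nascent-chain factors Btf3 and Naca gave 0.09 ± 0.13 and -0.15 ± 0.13, and the mRNA-binding protein Serbp1 -0.17 ± 0.12. For the mTORC1 arm they were Larp4 in KO vehicle (-0.17 ± 0.18), and Pdcd4, an inhibitor of the helicase eIF4A, with the agonist (-0.19 ± 0.12 against WT vehicle and -0.25 ± 0.12 against KO vehicle).

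Mitochondrial ribosomal proteins form the separate ribosome that translates mitochondrial mRNAs. Of 76 tested, 1 passed in 1 comparison and none in the others, with medians of -0.04 for KO vehicle, -0.05 for WT ATL1222 and 0.00 between them. Mrps6 gave 1192.1 and 1008.4 in WT vehicle, 1032.0 and 792.0 in KO vehicle, and 1661.7 and 1554.2 in WT ATL1222. Both agonist arrays lay above the other 4. It rose by 0.82 ± 0.17 log2 units from KO vehicle to WT ATL1222 (limma adjusted p = 0.036), and its differences from WT vehicle were -0.27 ± 0.17 for KO vehicle and 0.55 ± 0.17 for WT ATL1222 (adjusted p = 1.00 and 0.576). Its gene on chromosome 16 overlaps Slc5a3, a myo-inositol transporter gene, and which of the 2 transcripts the probes read was not tested. The smallest p in KO vehicle was that of Mrpl10 (0.39 ± 0.19, adjusted p = 1.00).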

How the data were processed

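The authors deposited linear array signals (intensities), made with GCOS per the submitters' processing notes. Neither the version of GCOS nor its way of combining probes is given in the sources used here. Biotinylated RNA came from 1 µg of total RNA, per the labels. Of 45101 probe sets, 64 are controls, 34945 are annotated to 1 symbol, 932 to several (these named no gene) and 9160 are unlisted. For 34741 the identifier matched a gene table of assembly GRCm38.p6, used for names, chromosomes and RefSeq promoters. Probe sets listing several ribosomal protein symbols are reported by all their symbols. Each of 18193 genes took its probe set with the highest mean. Of the 48 chosen probe sets 13 carry the maker's suffix _x_at and 2 _s_at, whose probes may match other transcripts.

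The test was limma 3.58.1 (R 4.3.3) on log2(signal + 16), with a variance trend and all 6 arrays in 1 fit, after the lowest 40% of genes by mean were left out (below a log2 mean of 6.45, a signal of about 71.2). Benjamini-Hochberg adjustment ran over all 10916 genes, with a threshold of 0.05. A fold on this scale understates the change of dim genes. The median standard error of a log2 difference was 0.130 over the members and 0.231 over all genes. Precision is limited by how few arrays there are. The smallest two-sided p that an exact permutation test can reach with 2 arrays on either side is 0.33. The fit was tested on simulated data for WT ATL1222 against WT vehicle over 10916 genes. It called 23 of 100 genes changed by 1 log2 unit, 71 of 100 changed by 2 and 1 of 10716 unchanged. The changed genes were drawn from all genes tested, with noise independent between genes. These rates therefore do not describe the members, which have smaller standard errors and shift together, with median differences far below 1 log2 unit.

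Replicate numbers paired the arrays, as judged from the data alone: same-numbered arrays deviated together from their group means, with correlations of 0.229, 0.234 and 0.150 over 10916 genes. The replicate block was an alternative, beside other pseudocounts, filters, normalizations, probe set rules and leaving out each array. The members, lists and tests were chosen with earlier results of these data known. Named were the members with the 5 highest and 5 lowest differences in each comparison, 20 members of known roles where present (Rps27a is not analysed here, nor is the receptor's own gene), those with the 3 widest and 3 narrowest spreads and those whose probe sets disagree most, and from other translation lists each gene that passed and the gene of smallest p. Marker lists are given by signals, with each gene that passed and some chosen after their values were seen.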

Additional observations from a re-analysis of the deposited data

How the results depend on the processing

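Under every alternative that left no group with 1 array, 0 of the members tested passed in each of the 3 comparisons. For KO vehicle at most 9 of all genes passed under these, so 0 members there says little. Leaving out the paralogs reused the main fit, so its 0 was fixed in advance. With the replicate block the medians were 0.061, -0.072 and -0.128, as without it. The block after quantile normalization, which also gave 0 members, was an alternative added after seeing the data. The block changed no member's call. The calls over all genes moved more: without the variance trend they were 0 for KO vehicle, 0 for WT ATL1222 and 3 between them, against 3, 23 and 107.

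The members' median log2 difference was the less stable value. Leaving out 1 array at a time gave -0.044 to 0.161 for KO vehicle against WT vehicle, -0.120 to -0.010 for WT ATL1222 against WT vehicle and -0.232 to -0.033 for WT ATL1222 against KO vehicle. Where this left 1 array in a group, it was assumed to vary like the others. Quantile normalization gave -0.006, -0.016 and -0.010, and the same with the replicate block, and cyclic loess 0.067, -0.030 and -0.095. Quantile normalization can take out a shift that the brightest genes share, so its values cannot tell whether one was there. What moved the medians was not tested. The KO vehicle median changed sign without KO vehicle replicate 1.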
